A study of Mus musculus with 12 samples.

Results

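Circular RNA of the mouse hippocampus was compared between 5xFAD and wild-type (WT) mice through its back-splice junctions, the joins that close an RNA circle. The members are all junction rows of the deposited table, 7025 of 7025, measured in 6 of the 12 samples of the series. A host gene is named for 6795 of them, which gives 2947 named hosts, and no gene is named for the other 230. The groups were the hippocampus of 7-month-old 5xFAD mice and the hippocampus of 7-month-old WT mice, with 3 libraries each under the title prefix AT. The prefix is not spelled out in the labels. Of its preparations the design text names one from RNA without rRNA and one with A-tailing and RNase R, an enzyme that digests linear RNA and spares circles. 5xFAD mice carry transgenes that include human APP with mutations of inherited Alzheimer's disease, and regulatory sequence of Thy1 drives them in neurons. The labels do not say that the libraries came from separate animals, so the p-values measure the spread between these libraries, which may be technical.

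Circles arise when the splicing machinery joins the end of an exon to the start of an exon upstream of it in place of the next one downstream. The product has no free ends, is spared by the exonucleases that degrade linear RNA, and is more stable than most messenger RNA. Brain is rich in circles, and many of its hosts are genes of the synapse. A read across such a join counts the circle, while the host's messenger RNA does not contain the join. Each junction is written here as the mm9 interval between the joined positions, as deposited, and its length is the distance between them in the genome, introns included. No source used here says whether the starts count from 0 or 1, or which strand carries the junction.

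The deposited signal is a normalised read count. Whole reads were recovered from it at 191408, 683540 and 659414 junction reads in the 5xFAD libraries and 438790, 695539 and 695528 in the WT libraries. In the shallowest library, 5xFAD replicate 1, 1 read was worth a signal of 0.866, against 0.226 to 0.374 in the other libraries. Of the 7025 junctions, 586, 33 and 68 were at 0 in the 5xFAD libraries and 570, 24 and 167 in the WT libraries. Libraries did not group by genotype. The correlation of log2(signal + 1) over all junctions was 0.676 to 0.878 within 5xFAD, 0.731 to 0.851 within WT and 0.617 to 0.893 across genotypes, and the closest pair was 5xFAD replicate 2 and WT replicate 2. Among the 263 junctions with a mean signal of at least 100, 5xFAD replicate 1 was the library farthest from the median in 124. Thy1 hosted no listed junction, so the genotype of these libraries was not checked through the gene that drives the transgenes. In the other preparation of the series, with title prefix CG, Thy1 was at 1136, 1172 and 305 FPKM in the libraries labelled 5xFAD and 296, 308 and 340 FPKM in WT, so the one labelled 5xFAD replicate 3 goes against its label there. The labels do not say whether equal replicate numbers of the AT and CG libraries share an animal.

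The most abundant circles of the hippocampus overlapped between the genotypes in all of the 10 highest junctions, with log2 differences of 5xFAD minus WT from -0.23 to 0.07. Gigyf2, a translational repressor whose circle the design text names, hosted the highest junction, chr1:89260678-89276583. Its signal was 2334, 2884 and 2751 in 5xFAD and 2384, 3194 and 2785 in WT. The groups overlapped, and the difference was -0.07 (SE 0.24, 95% interval -0.58 to 0.45). Next came a short junction of Med13l, a subunit of the Mediator kinase module, chr5:119043341-119043579, with an interval of 238 bases. It gave 2625, 1033 and 943 in 5xFAD and 1693, 1137 and 1423 in WT. Replicate 1 was the highest library in each genotype here, and the difference was -0.03 (SE 0.35).

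The other 8 junctions among the 10 most abundant overlapped as well. Phf21a, a reader of unmethylated histone H3 in a demethylase complex, gave 1337, 1019 and 1420 in 5xFAD and 1173, 1112 and 1288 in WT. Ksr2, a scaffold of the MAP kinase cascade, gave 1615, 739 and 1013 in 5xFAD and 1206, 824 and 1084 in WT. All WT values lay inside the 5xFAD range for these circles. The junctions of Dtnb, a dystrobrevin, Elf2, an ETS transcription factor, and Tmeff1, a membrane protein, had differences of -0.05, 0.00 and 0.04. Atxn1, the gene of ataxin-1, differed by -0.18 (SE 0.25) and Aagab, an adaptor assembly factor, by -0.07 (SE 0.27). Ssbp2, a partner of LIM-domain binding proteins, had the largest of the 10 differences, -0.23 (SE 0.25), with 817, 854 and 787 in 5xFAD and 1142, 940 and 832 in WT. The highest 5xFAD library, at 854, lay above the lowest WT library, at 832. All 10 intervals of the difference lay between a log2 change of -0.80 and 0.73.

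**Figure D1:**
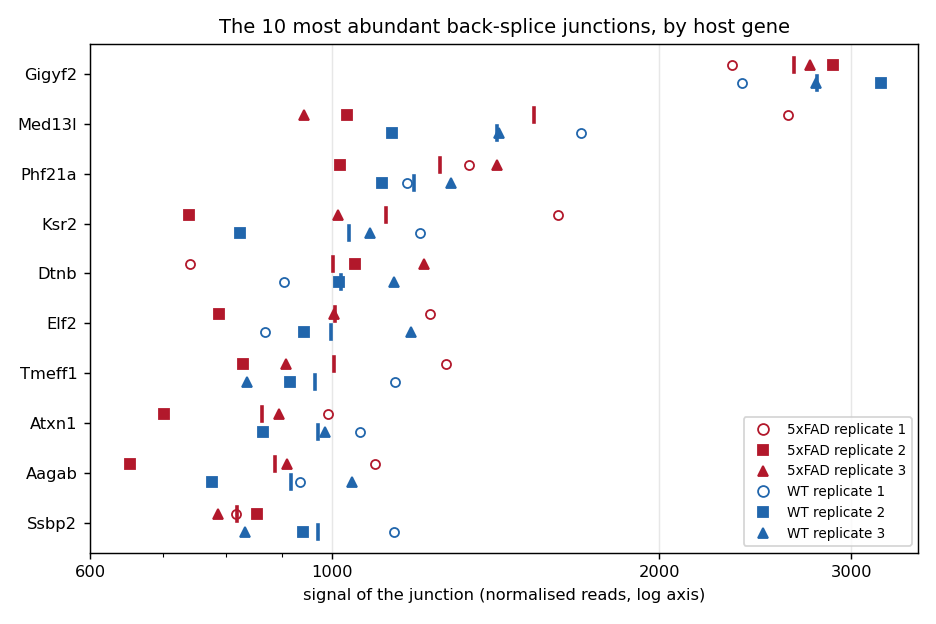
Signal (normalised reads, log axis) of the 10 junctions with the highest mean, by host gene, 5xFAD libraries in red above WT libraries in blue, with vertical ticks at the group means. The groups overlap in all 10 junctions, and replicate 1 (open circles) is often far from the other libraries of its genotype, as for Med13l at 2625 in 5xFAD.

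Gigyf2 gave 6 listed junctions, and 4 of them share the start 89260678. The main one held 1.41%, 1.87% and 1.75% of all junction signal in the 5xFAD libraries and 1.45%, 2.02% and 1.71% in the WT libraries. A circle ending at 89270686 was at 99.6, 75.9 and 59.0 in 5xFAD and 101, 90.7 and 120 in WT, a difference of -0.43 (SE 0.32). The junction chr1:89230844-89261854 was the one Gigyf2 junction whose groups did not overlap. Its signal was 0, 1.36 and 0 in 5xFAD and 13.1, 4.56 and 5.61 in WT, a difference of -2.59 (SE 0.62) that did not pass (limma adjusted p = 0.383). This junction was listed through WT alone, by the threshold given below, so its direction follows in large part from the listing. The Gigyf2 sum over 6 junctions was 2448, 2989 and 2845 in 5xFAD and 2511, 3327 and 2928 in WT. The sum differed by -0.08 (SE 0.20), and its direction turned without 5xFAD replicate 1 (0.01) and without WT replicate 2 (0.02).

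App, the gene of the amyloid precursor, hosted 6 junctions with a summed signal of 275, 221 and 220 in 5xFAD and 162, 238 and 248 in WT. The groups overlapped, with a difference of 0.16 (SE 0.24). WT replicate 1 held the lowest sum, and without it the difference was -0.03. The main App circle, chr16:85013871-85030610, gave 157, 143 and 162 in 5xFAD and 103, 153 and 165 in WT. A rare App junction, chr16:85056568-85083133, was at 5.20, 3.16 and 2.63 in 5xFAD and 0, 2.51 and 0 in WT. Its groups did not overlap, and the difference of 1.58 (SE 0.61) did not pass (limma adjusted p = 0.793). This junction was listed through 5xFAD alone, by the threshold given below, so its direction follows in large part from the listing.

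In the 5 hosts with the most junctions, differences of single junctions lay on both sides of 0, and those of the sums were between -0.09 and 0.05. Dgki, a diacylglycerol kinase, had 36 junctions with differences from -1.90 to 1.94, of which 21 were positive. Its sum was 1563, 1657 and 1550 in 5xFAD and 1394, 1621 and 1721 in WT, a difference of 0.02 (SE 0.19). Nbea, a BEACH-domain protein of membrane traffic, had 22 junctions from -1.34 to 1.97 and a sum that differed by 0.05 (SE 0.21). For Tasp1, a protease, the 23 junctions ran from -0.80 to 0.50, for the calcium channel subunit Cacna2d3 the 19 ran from -1.35 to 1.64, and for the corepressor Rere the 19 ran from -0.66 to 0.93. The sums of these 3 hosts differed by 0.03, -0.09 and -0.03. Of 1390 hosts with at least 2 junctions, 413 (29.7%) had differences of one sign in all of them, and of 563 hosts with exactly 2, 294 (52.2%) did.

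Across all 7025 junctions, limma on log2(signal + 1) with Benjamini-Hochberg adjustment called 0, which is 0% (the smallest adjusted p was 0.368). At an unadjusted p under 0.05 there were 399 junctions (5.68% of those tested), 176 higher in 5xFAD (2.51%) and 223 lower (3.17%). Groups did not overlap in 311 junctions higher in 5xFAD (4.43%) and 467 lower in 5xFAD (6.65%), or in 341 higher and 425 lower with TMM scaling and 333 higher and 436 lower with equal library totals. The median difference was -0.06, and 3212 junctions (45.7%) had a positive one. That median moved with the method, to -0.028 with TMM scaling, -0.015 with quantile scaling, 0.016 with edgeR and 0.047 with DESeq2. The quasi-likelihood test of edgeR on the recovered reads called 0 as well, with 202 at an unadjusted p under 0.05. DESeq2 called 1 junction (0.0142%), that of Uap1, and limma with array quality weights called 2 (0.0285%), those of Uap1 and Cdkal1.

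How small a difference the libraries could show depended on abundance. Among the 263 junctions with a mean signal of at least 100, the 95% interval of the difference lay within 2-fold in either direction for 209 (79.5%). The share was 186 of 354 (52.5%) at 50 to 100 and 190 of 963 at 20 to 50. It was 9 of 1409 at 10 to 20, 0 of 2120 at 5 to 10 and 0 of 1916 under 5. For 8.46% of all junctions, 594 in number, the whole interval lay within 2-fold in either direction. For the rest, the interval reached beyond 2-fold higher, beyond 2-fold lower or both. The median SE was 0.31 in the most abundant class and 0.66 in the rarest, under 5. Low unadjusted p-values sat at the other end of the scale, with 305 of 1916 junctions (15.9%) under a signal of 5 at p under 0.05, 63 of 2120 at 5 to 10, 0 of 354 at 50 to 100 and 0 of 263 at 100 or more.

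**Figure D2:**
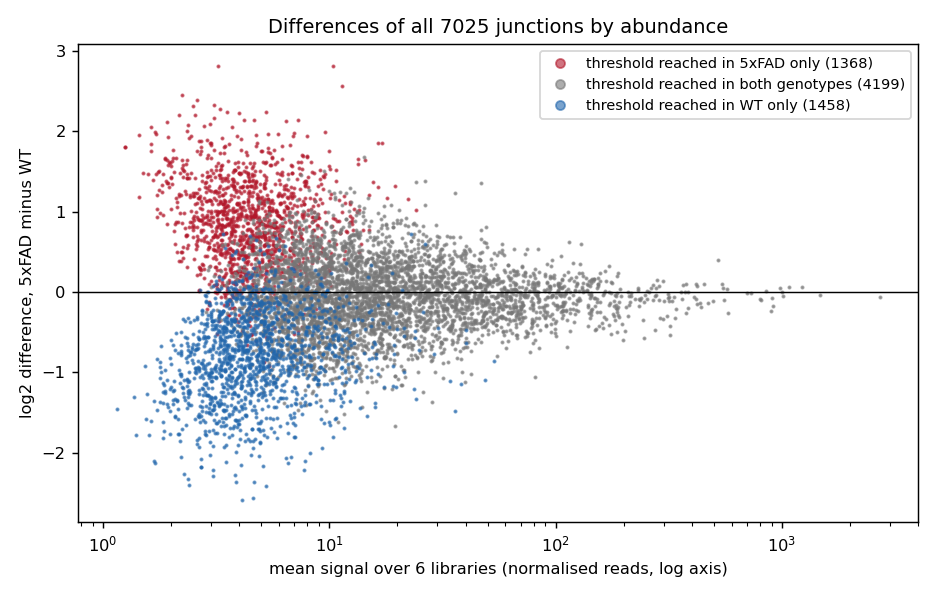
Log2 difference of 5xFAD minus WT against the mean signal over 6 libraries (normalised reads, log axis) for all 7025 junctions, coloured by the genotype in which all 3 libraries reach the listing threshold. Grey junctions narrow toward 0 with rising abundance, while red and blue ones, listed through one genotype, lie at low signal and mostly on their own side of 0.

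The listing of junctions sets part of this picture. In every listed junction, all libraries of 5xFAD or of WT, or of both, reach a signal of 2.03. This is the lowest such value in the data, and it was taken as the listing threshold without a stated rule behind it. Both genotypes passed that threshold in 4199 junctions, which held 90.4% of the signal in 5xFAD and 90.8% in WT. Their median difference was -0.06, with 33 (0.786%) at an unadjusted p under 0.05. The threshold was reached in 5xFAD alone for 1368 junctions and in WT alone for 1458, with median differences of 0.84 and -0.78. Those directions follow from the listing and are not a result, and 165 and 201 of the 399 junctions at an unadjusted p under 0.05 come from these one-sided classes. Of the 311 junctions higher in 5xFAD without overlap, 211 were listed through 5xFAD alone. Of the 467 lower without overlap, 276 were listed through WT alone. The 4199 junctions listed through both genotypes held 100 higher and 191 lower without overlap. Tested alone, the 4199 junctions listed through both genotypes gave 0 calls, with 66 at an unadjusted p under 0.05 (smallest limma adjusted p = 1.00).

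Among junctions with a mean signal of at least 100, the groups did not overlap in 5, all lower in 5xFAD (0 of 263 higher and 1.90% lower, against 4.43% and 6.65% over all junctions). Those shares over all junctions include the one-sided classes. In the 4199 junctions listed through both genotypes, 100 were higher and 191 lower without overlap. None of the 5 abundant junctions passed. They were chosen after their values were seen. Ndst3, an enzyme of heparan sulfate synthesis, gave 201, 299 and 287 in 5xFAD and 392, 334 and 402 in WT at chr3:123304358-123337258, a difference of -0.54 (SE 0.27, limma adjusted p = 0.898). Acvr2a, an activin receptor, gave 121, 138 and 154 in 5xFAD and 226, 155 and 166 in WT at chr2:48725808-48728993. The last gap is narrow, 154 in the highest 5xFAD library against 155 in the lowest WT library. Dcun1d4, a factor of cullin neddylation, gave 370, 342 and 321 in 5xFAD and 442, 403 and 394 in WT at chr5:73902124-73925936, a difference of -0.26 (SE 0.25). The junctions of Mboat2, a lysophospholipid acyltransferase, and a secondary junction of Dgki, chr6:36844775-36887400, differed by -0.33 (SE 0.29) and -0.29 (SE 0.27). With the TMM scaling of edgeR the same count was 1 higher and 6 lower.

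The junctions with the smallest p on the higher side were rare circles seen in 5xFAD and at or near 0 reads in WT. Uap1, which makes the sugar donor UDP-N-acetylglucosamine, led them at chr1:172079401-172097079. Its signal was 3.46, 6.55 and 9.32 in 5xFAD, or 4, 29 and 39 reads, and 0 in all 3 WT libraries. The 5xFAD mean was at least 24.4-fold higher than a floor of 3 reads over the WT group (log2 difference 2.81, SE 0.53, limma adjusted p = 0.368). DESeq2 and array quality weights put the Uap1 junction past the threshold (adjusted p = 0.0207 and 0.00995), while edgeR did not (0.608). As the junction is listed through 5xFAD alone, the direction of these calls follows in large part from the listing. The host's CG level was 14.2, 15.4 and 15.4 FPKM in the libraries labelled 5xFAD, of which the last goes against its label by Thy1, and 14.3, 15.0 and 14.1 in WT. Cdkal1, a tRNA-modifying enzyme, was next at chr13:29717489-29809686, with 4.33, 4.75 and 4.30 in 5xFAD and 0 in all WT libraries, at least 16.9-fold higher. Its adjusted p was 0.368 by limma and 0.0426 with array quality weights.

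Others on this side had the same form. Junctions of Wdfy3, a scaffold of selective autophagy, Tfcp2, a transcription factor, and Fxr2, an RNA-binding relative of the fragile X protein, were at 0 in all WT libraries. Against the floor they were at least 10.9-fold, 19.6-fold and 9.41-fold higher in 5xFAD. Tfcp2 gave 10.4, 2.26 and 2.87 in 5xFAD, so its mean rests on replicate 1. Mga, a partner of MAX, Vti1a, a vesicle SNARE, Fig4, a phosphoinositide phosphatase, and Nf1, an activator of Ras GTP hydrolysis, had 1 WT library above 0 each. Their log2 differences were 2.32, 2.20, 2.11 and 1.99. These junctions were listed through 5xFAD alone, and none passed limma, with an adjusted p of 0.368 for each.

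The lower side had the same form with the genotypes exchanged. Tgfbr3, the co-receptor betaglycan, had the smallest p at chr5:107566548-107578977, with 0, 0.226 and 0 in 5xFAD and 5.61, 4.56 and 3.98 in WT. A difference of -2.41 (SE 0.49) separated the groups without overlap (limma adjusted p = 0.368). Creb1, a transcription factor of the cyclic AMP response, was at 0 in all 5xFAD libraries and at 2.99, 3.19 and 3.98 in WT, at least 11-fold lower against the floor in 5xFAD. Pip4k2b, a phosphoinositide kinase, was likewise at 0 in 5xFAD and at least 10.9-fold lower. Wdr47, a microtubule-associated protein, was the most abundant of the 10 in WT, with 0, 1.13 and 0.717 in 5xFAD and 5.24, 8.43 and 11.9 in WT. Dmd, the gene of dystrophin, Scyl3, a pseudokinase, Adgra1, an adhesion receptor, Smg6, the nuclease of nonsense-mediated decay, and Ncln, a membrane protein of the endoplasmic reticulum, differed by -2.33, -2.26, -2.05, -1.79 and -2.18. With the rare Gigyf2 junction above these make 10, all listed through WT alone, with limma adjusted p from 0.368 to 0.401.

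**Figure D3:**
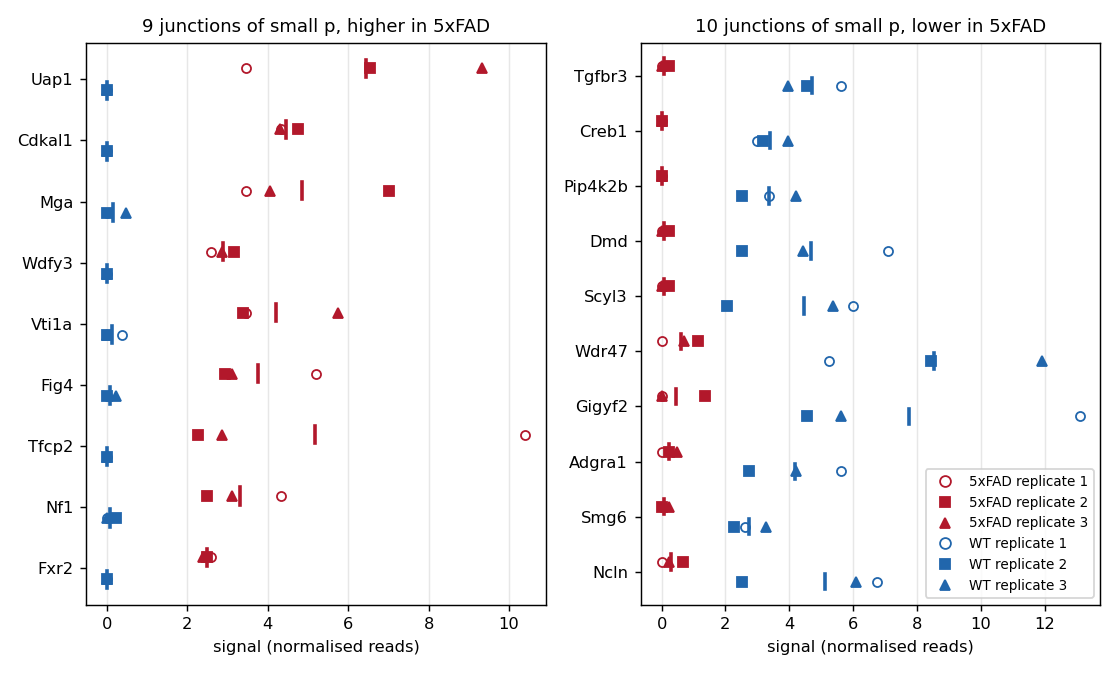
Signal (normalised reads) of 9 junctions of small p higher in 5xFAD (left) and of the 10 with the smallest p lower in 5xFAD (right), by host gene, 5xFAD in red above WT in blue, with vertical ticks at the group means. The lower group lies at or near 0 in each, the higher one mostly between 2 and 10, and none of them passed limma.

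Junction signal was also summed over each named host, and no host passed the main test. Limma called 0 of 2947 hosts (0%, smallest adjusted p = 0.998), with 105 at an unadjusted p under 0.05 (3.56%), 44 higher in 5xFAD (1.49%) and 61 lower (2.07%). Of these 105, 90 were hosts of a single junction, as were 1557 of all 2947. Groups did not overlap in 108 hosts higher in 5xFAD (3.66%) and 162 lower (5.5%), the median difference was -0.05, and 1291 (43.8%) were positive. With TMM scaling the groups did not overlap in 136 hosts higher and 144 lower, and with equal library totals in 132 higher and 146 lower, so the surplus of lower hosts was smaller there. The host median was 0.002 with edgeR and 0.03 with DESeq2. The interval of the difference lay within 2-fold for 759 hosts, among them 321 of the 354 with a summed signal of at least 100. EdgeR called 0 hosts, with 61 at an unadjusted p under 0.05, while DESeq2 and array quality weights each called 1 (0.0339%), Uap1, at adjusted p = 0.0138 and 0.0246. The Uap1 sum is the single Uap1 junction named above, listed through 5xFAD alone. Summed over junctions listed through both genotypes, 2104 hosts gave 0 calls by limma, with 26 at an unadjusted p under 0.05.

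The hosts with the smallest p were again single-junction hosts. None of their junctions was listed through both genotypes, so their directions follow in large part from the listing and are not a result. Besides Uap1, Fig4 and Tfcp2, the higher side held Sh3d19, an SH3-domain adaptor, St7l, Dbnl, an actin-binding adaptor, and Ube2h, a ubiquitin-conjugating enzyme, with differences of 2.20, 2.32, 1.80 and 2.16. Ube2h gave 10.4, 3.84 and 2.87 in 5xFAD and 0, 1.37 and 0 in WT. Besides Tgfbr3, Wdr47 and Adgra1, the lower side held Ctage5, a cargo receptor of the endoplasmic reticulum, Mtmr6, a phosphoinositide phosphatase, Cacna1i, a T-type calcium channel, and AI846148. Their differences were -2.04, -1.77, -1.72 and -1.90, and each of these hosts had a limma adjusted p of 0.998.

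Of the 354 hosts with a sum of at least 100, the groups did not overlap in 4 higher in 5xFAD (1.13%) and 19 lower (5.37%), against 3.66% and 5.5% over all hosts. That split was 6 and 13 with equal library totals and 6 and 11 with TMM scaling. The 4 higher hosts, and the 4 lower ones with the smallest p, are named after their values were seen. Stk39, a kinase of chloride transport, gave 608, 623 and 529 in 5xFAD and 446, 520 and 444 in WT, a difference of 0.32 (SE 0.20). Myrip, which links Rab27 to myosin, gave 274, 279 and 368 in 5xFAD and 233, 210 and 249 in WT, a difference of 0.40 (SE 0.22). Asph, a hydroxylase of the endoplasmic reticulum, and Pknox2, a homeodomain factor, differed by 0.23 and 0.67. Of the lower hosts, Tusc3, a subunit of the oligosaccharyltransferase complex, gave 115, 158 and 156 in 5xFAD and 183, 200 and 242 in WT, a difference of -0.55 (SE 0.24). Kmt2c, a histone H3 methyltransferase, gave 78.0, 99.0 and 80.3 in 5xFAD and 168, 104 and 119 in WT. Ndst3 and Mboat2 differed by -0.43 (SE 0.22) and -0.39 (SE 0.21) in their sums. Every one of the 8 had a limma adjusted p of 0.998.

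Host genes were then read by function, in 20 lists, and no list member passed. Of the hosts named below, Magi3, Grm8, Kcnb2 and Ikzf1 have a single junction, listed through 5xFAD alone. Ppfia3, Cntn4, Chd1, Gigyf1, Usp33 and Slc1a2 have a single junction, listed through WT alone. The directions of these hosts follow in large part from the listing and are not a result. List medians kept their sign under equal library totals, TMM and quantile scaling, except that of postsynaptic scaffold hosts, which was -0.002 under quantile scaling. Without WT replicate 1 the medians of the postsynaptic, amyloid and well known circle lists turned to -0.09, -0.01 and -0.03 and those of the presynaptic list and the 1 host of the vessel list to 0.01 and 0.13. Without 5xFAD replicate 1 those of the glutamate receptor, GABA and chromatin lists turned to 0.05, 0.15 and 0.02 and that of the cytoskeleton list to -0.16. Without both replicates 1 those of the postsynaptic, cytoskeleton and chromatin lists turned to -0.05, -0.03 and 0.02. Hosts of the presynaptic active zone, the site of vesicle release, numbered 32 of 42 listed genes, with 11 positive and 21 negative differences and a median of -0.11. Rims1, a scaffold of the active zone, was at 659, 841 and 842 in 5xFAD and 689, 800 and 659 in WT. The lowest p among them was that of Ppfia3, a liprin, with 0, 0.452 and 2.63 in 5xFAD and 5.99, 5.24 and 2.34 in WT, groups that overlapped. Postsynaptic scaffold hosts numbered 27 of 32, with 14 positive, 13 negative and a median of 0.01. Magi3, a scaffold, was higher at 9.53, 6.78 and 3.82 in 5xFAD and 0.374, 3.65 and 3.04 in WT, so that the lowest 5xFAD library, at 3.82, lay just above the highest WT library, at 3.65. Homer1, a well known brain circle host, gave 85.8, 202 and 160 in 5xFAD and 213, 209 and 147 in WT, a difference of -0.41 (SE 0.32) that was 0.04 without both replicates 1.

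No receptor host passed. Of 24 glutamate receptor genes 17 were hosts, 6 positive and 11 negative, with a median of -0.05. Grm8, a metabotropic receptor, was at 4.33, 4.52 and 4.78 in 5xFAD and 0.748, 1.60 and 1.17 in WT, without overlap (difference 1.37, SE 0.55, limma adjusted p = 0.998). The single Grm8 junction was listed through 5xFAD alone. For GABA receptors and inhibitory neuron genes, 13 of 20 were hosts, 6 positive and 7 negative, with a median of -0.07. Groups did not overlap in 1 of the 13 higher in 5xFAD and 2 lower, against 3.66% and 5.5% of all hosts. Erbb4, the neuregulin receptor of interneurons, gave 29.5, 29.6 and 38.7 in 5xFAD and 40.4, 44.4 and 71.1 in WT, without overlap. Gabbr2, a GABA receptor subunit, went the other way without overlap, at 87.5, 37.7 and 37.0 in 5xFAD and 33.3, 34.2 and 33.7 in WT.

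Ion channel hosts, 28 of 41 listed genes, had negative differences in 23 and positive ones in 5, with a median of -0.11 against -0.05 over all hosts. Kcnb2, a delayed rectifier potassium channel, was on the positive side with 5.20, 6.78 and 11.5 in 5xFAD and 1.5, 4.10 and 4.68 in WT. Cell adhesion hosts, 34 of 47, split into 12 positive and 22 negative with a median of -0.09. In 4 of the 34 the 5xFAD libraries lay below all WT libraries, against 5.5% of all hosts. Cntn4, among these 4, has a single junction, listed through WT alone. Lsamp, an IgLON adhesion protein, gave 14.7, 10.2 and 10.8 in 5xFAD and 39.7, 18.0 and 20.8 in WT. Cdh8, a cadherin, gave 13.0, 12.7 and 12.2 in 5xFAD and 22.8, 16.0 and 32.5 in WT. Cytoskeleton hosts, 24 of 39, were 12 positive and 12 negative with a median of 0.01, or 13 and 11 with TMM scaling. Fmn2, an actin nucleator, was at 27.7, 47.9 and 41.3 in 5xFAD and 77.8, 50.4 and 52.6 in WT. Diacylglycerol kinases and BEACH genes had 10 hosts of 18, 2 positive and 8 negative, with a median of -0.28. Dgkb gave 123, 103 and 145 in 5xFAD and 170, 144 and 191 in WT, a difference of -0.44 (SE 0.24) with 1 5xFAD library just above the lowest WT library.

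Nuclear, RNA-binding and protein turnover genes were also read as lists. Transcription and chromatin genes had 67 hosts of 83, 25 positive and 42 negative, with a median of -0.06. Tcf20, a coactivator, gave 76.2, 78.2 and 53.5 in 5xFAD and 30.7, 49.9 and 54.5 in WT, and Chd1, a remodeler, 0, 7.46 and 2.15 in 5xFAD and 16.5, 6.38 and 7.02 in WT. RNA-binding and circle biogenesis genes had 34 hosts of 65, 11 positive and 23 negative, with a median of -0.16. Their summed signal was 5135 to 5371 in 5xFAD and 5348 to 5872 in WT, ranges that overlap at their ends. A large part of that sum was Gigyf2, with 2448, 2989 and 2845 in 5xFAD and 2511, 3327 and 2928 in WT, groups that overlapped. Gigyf1, the paralog of Gigyf2, was at 1.73, 1.36 and 1.43 in 5xFAD and 13.5, 4.56 and 2.57 in WT, and Cnot1, the scaffold of the deadenylase complex, at 2.60, 2.71 and 2.63 in 5xFAD and 3.74, 9.34 and 7.72 in WT. Neither passed. Ubiquitin and protein turnover genes had 49 hosts of 66, 20 positive and 29 negative. Usp48 is counted among the 49 through a synonym shared with the listed gene Usp31, so it may not be the gene meant. Usp33, a deubiquitinase, was at 0, 2.26 and 2.63 in 5xFAD and 4.86, 5.70 and 4.44 in WT. Among 29 of 32 hosts of well known brain circles, 19 were positive and 10 negative, with a median of 0.03. Zfp609 gave 420, 724 and 706 in 5xFAD and 386, 546 and 453 in WT, and Rmst, a noncoding RNA, 33.8, 81.8 and 82.9 in 5xFAD and 19.8, 61.5 and 31.3 in WT.

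Amyloid processing and Alzheimer risk genes had 17 hosts of 44, 10 positive and 7 negative, with a median of 0.08 and a summed signal of 1196 to 1386 in 5xFAD and 1194 to 1227 in WT. Adam10, the main alpha-secretase, gave 29.5, 116 and 73.4 in 5xFAD and 165, 84.3 and 66.0 in WT. Its replicates 1 were the lowest and the highest of the 6, and without both the difference of -0.61 (SE 0.47) was 0.31. Picalm, a clathrin assembly factor, gave 32.0, 8.81 and 12.4 in 5xFAD and 7.86, 10.5 and 10.3 in WT, and Ephb2, a receptor kinase, 21.7, 38.2 and 51.1 in 5xFAD and 14.6, 34.4 and 26.4 in WT. No host of this list had an unadjusted p under 0.05, and groups overlapped in all 17.

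Markers of cell types were represented unevenly among the hosts, and in whole tissue fewer cells of a type and less RNA per cell cannot be told apart. Hippocampal excitatory neuron genes had 13 hosts of 24, among them Prox1 of the dentate gyrus, with 5 positive, 8 negative and a median of -0.09. Nr3c2, the mineralocorticoid receptor, was at 10.4, 6.10 and 12 in 5xFAD and 13.8, 18.2 and 17.1 in WT, without overlap. Microglia had 4 hosts of 40 and none of its defining genes Csf1r, Cx3cr1, P2ry12, Tmem119 and Trem2. All 4 differences were positive, with a median of 0.33 that was 0.05 without WT replicate 1 and -0.16 without both replicates 1, and the sums overlapped at 34.1 to 73.6 in 5xFAD and 24.3 to 46.3 in WT. Ikzf1, a lymphoid and myeloid factor, gave 11.3, 3.39 and 5.74 in 5xFAD and 0, 4.79 and 5.61 in WT, and its difference of 1.08 was -0.19 without both replicates 1. Mertk, a phagocytic receptor, gave 17.3, 13.1 and 18.4 in 5xFAD and 13.1, 14.4 and 10.1 in WT. Vessel, meninges and choroid plexus had 1 host of 30, Trpm3, at 132, 59.2 and 91.3 in 5xFAD and 135, 57.7 and 115 in WT, a difference of -0.11 that was 0.13 without WT replicate 1.

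Astrocyte genes had 8 hosts of 26, without Gfap, Aqp4, Slc1a3 or Aldh1l1, and 7 of the 8 differences were negative with a median of -0.54. The summed signal was 117 to 129 in 5xFAD and 146 to 167 in WT, so all 5xFAD libraries lay below all WT libraries, and groups were lower without overlap in 3 of the 8 hosts (5.5% of all hosts were). These were Lsamp, which neurons also express, Slc1a2, the main glutamate transporter, and Gpc5, a glypican. The single Slc1a2 junction was listed through WT alone, so its direction follows in large part from the listing. The share over all hosts also includes hosts of this kind. The summed signal, the list median and the count of negative differences include Slc1a2 and Lsamp, so they share these limits. Slc1a2 was at 0, 1.81 and 2.63 in 5xFAD and 13.8, 2.96 and 3.51 in WT, a difference of -1.57 (SE 0.73, limma adjusted p = 0.998). Its CG level was 515, 720 and 666 FPKM in the libraries labelled 5xFAD, of which the last goes against its label by Thy1, and 513, 752 and 601 in WT. Gpc5 gave 12.1, 15.1 and 14.6 in 5xFAD and 17.6, 28.0 and 26.2 in WT. The exception was Npas3, a transcription factor, at 43.3, 36.6 and 31.1 in 5xFAD and 17.2, 31.7 and 26.7 in WT. Oligodendrocyte and precursor genes had 12 hosts of 31, 8 positive and 4 negative, with a median of 0.04 that was -0.15 without both replicates 1, and Pde4b, a phosphodiesterase, at 8.66, 8.36 and 13.4 in 5xFAD and 22.5, 13.2 and 14.5 in WT. Of 21 immediate early genes 2 were hosts, Homer1 and Rheb, a GTPase upstream of mTOR, which was at 6.06, 7.23 and 5.26 in 5xFAD and 12, 9.57 and 23.6 in WT. The part of cell composition in these differences was not tested.

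**Figure D4:**
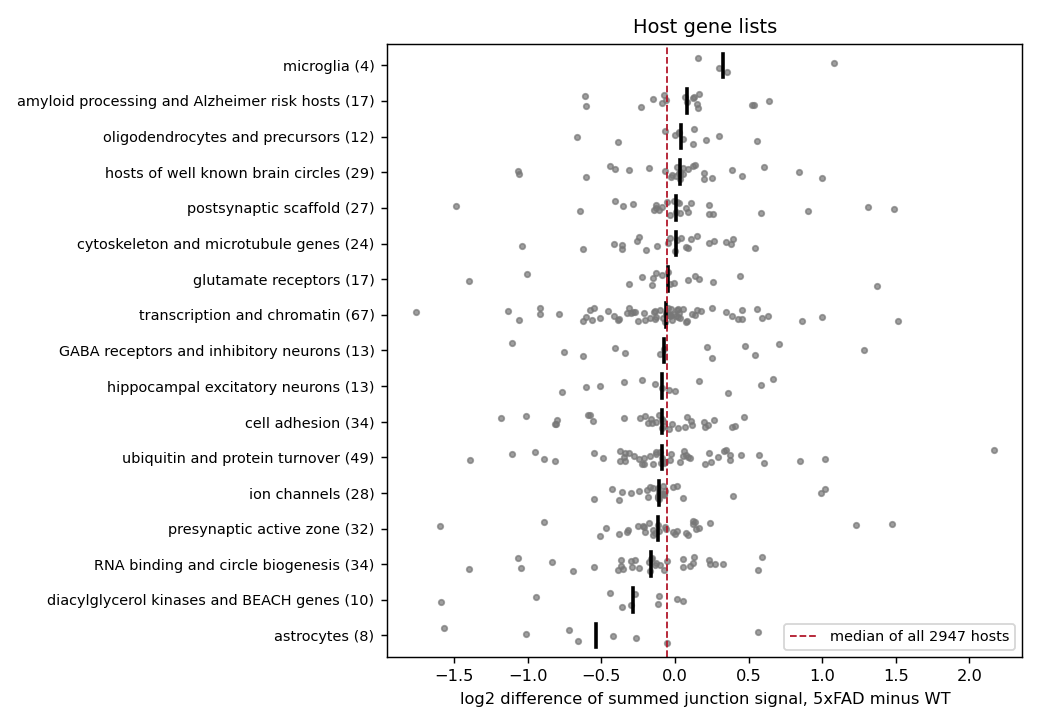
Log2 difference of summed junction signal, 5xFAD minus WT, for each host (points) of 17 gene lists with at least 4 hosts, with the number of hosts in brackets, black ticks at list medians and a dashed line at the median of all 2947 hosts. Medians run from -0.54 in astrocytes to 0.33 in microglia, both lists of few hosts, and most large lists lie within 0.2 of 0.

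The make-up of the junction libraries was compared through 5 summary measures, with an exact two-sided permutation test over the 6 libraries that cannot give a p below 0.1. Thinned to 191408 reads, 6715 ± 242 junctions had a read in 5xFAD and 6669 ± 270 in WT (SD, n = 3 each, exact permutation p = 0.8). The 100 most abundant junctions held 26.1% ± 0.319 of the signal in 5xFAD and 26.3% ± 0.284 in WT (SD, n = 3 each, exact permutation p = 0.3). Junctions with no gene named held 2.21% ± 0.0333 in 5xFAD and 2.23% ± 0.105 in WT (exact permutation p = 0.8). Adjusted over the 5 measures, each p was 1.

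Interval length ran from 151 to 429195 bases with a median of 9516. Junctions under 1 kb, 668 in number, held 13.2%, 10.3% and 10.4% of the signal in the 5xFAD libraries and 11.2%, 10.4% and 10.8% in the WT libraries (exact permutation p = 1). Those of 50 kb or more held 7.59%, 8.21% and 8.49% in 5xFAD and 8.05%, 8.28% and 8.37% in WT (exact permutation p = 0.8). The shallowest library, 5xFAD replicate 1, stood apart in both measures, highest in short intervals and lowest in long ones. At 20 to 50 kb it held 18.6%, against 21.6% to 23.2% in the other 5 libraries. Median differences of the 6 length classes lay between -0.08 and -0.02.

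**Figure D5:**
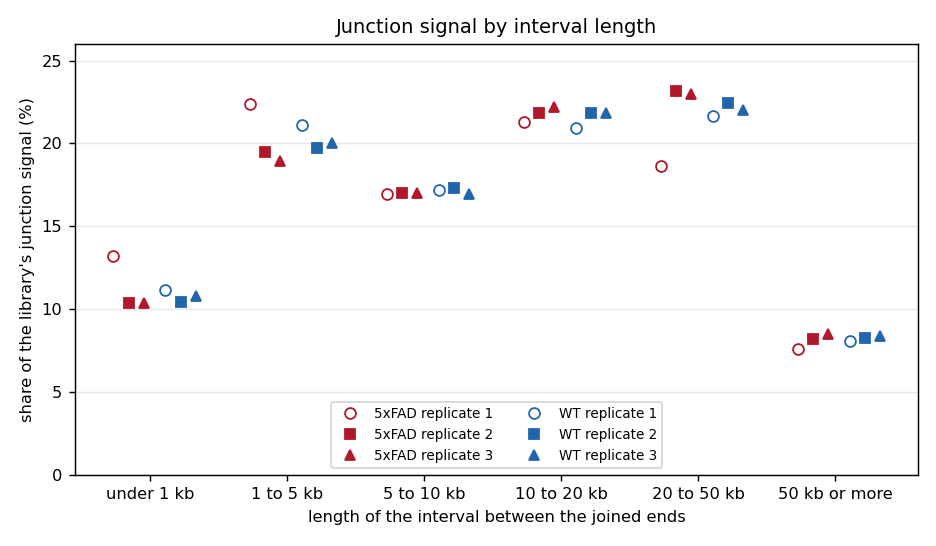
Share of each library's junction signal (%) by length of the genomic interval between the joined ends, 5xFAD libraries in red left of WT libraries in blue. Replicates 2 and 3 of both genotypes lie close together in every class, while 5xFAD replicate 1 (open red circle) is higher under 5 kb and lower at 20 to 50 kb.

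The CG libraries give the FPKM of the same hosts. Across 2947 hosts, the difference of summed junction signal and the difference of host log2(FPKM + 1) had a Spearman correlation of 0.104. It was 0.135 over 1870 hosts with a sum of at least 10 and 0.248 over the 354 with at least 100. Without the CG library that goes against its label the last value was 0.18. Hosts are not independent replicates, and each side shares its 6 libraries across all hosts. In WT, the level of summed junction signal and host FPKM correlated at 0.188 over the 2947 hosts and 0.0729 over the 354.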

How the data were processed

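Hippocampal RNA libraries of 5xFAD and WT mice were analysed from a junction table (AT) and, beside it, a gene table (CG). Per the labels' protocols, TRIzol-extracted total RNA was freed of rRNA and sequenced paired-end. Per the submitters' processing notes the build was mm9 and the tool DESeq, without a version. No source used here gives the aligner, junction caller or strand setting. The deposited signal of each junction is a read count scaled per library: 100% of values were whole multiples (within 0.01) of a library's smallest step, so reads were recovered by division. Per the file headers, the table also holds the authors' log2 fold changes and p-values, raw and adjusted, which were not used. The CG table holds FPKM, as deposited by the authors, used only beside the junctions, since the tables share no unit.

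The main test was limma 3.58.1 (R 4.3.3) with a mean trend on log2(signal + 1) for a mean of at least 0.5, which all 7025 junctions and 2947 host sums passed, two-sided, and called at a Benjamini-Hochberg adjusted p under 0.05. Differences on this scale understate changes of low junctions. EdgeR 4.0.16 and DESeq2 1.42.0 on recovered reads, other scalings, pseudocounts and filters, and fits without each library were alternatives. The fits were also run on simulated data with known changes, and the share of those changes recovered is not reported here. A floor of 3 reads over a group is a signal of 0.307 in 5xFAD and 0.265 in WT, and floors cover counting error only. Libraries differed by a chi-square of 5.85 to 13.6 per degree of freedom, so none was a duplicate. Named were the 10 most abundant junctions, the 10 positive and 10 negative differences with the smallest p (8 and 8 for hosts), all of Gigyf2, App, the 5 hosts with most junctions and, of 20 gene lists, up to 4 members with the smallest p and 2 with the highest sum. Some items that this rule would name are not reported here. List genes were matched by symbol or synonym. The members and lists were chosen with earlier results of these data known.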

Additional observations from a re-analysis of the deposited data

How the results depend on the processing

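No fit without 1 library, with another pseudocount, filter, scaling or without the mean trend called a junction or host, nor did edgeR or the replicate block (0 calls for both). Deviations of libraries with equal replicate numbers correlated at 0.0676, 0.0884 and 0.0401. Unequal numbers were not set beside them, so these values cannot settle whether the replicate numbers pair the libraries. DESeq2 called 1 junction and 1 host, and array quality weights 2 and 1. The Uap1 junction differed by 7.12 with DESeq2 and 3.06 with those weights (adjusted p over all alternatives 0.00995 to 0.996), its host sum by 7.11 and 3.10, and the Cdkal1 junction by 2.46 with the weights. Junctions at an unadjusted p under 0.05, 399 in the main fit, numbered 259 without WT replicate 1, 205 with a pseudocount of 0.1 and 202 by edgeR. Hosts, 105 there, numbered 175 without 5xFAD replicate 1, 211 without both replicates 1 (chosen after seeing the data), 187 with array quality weights, 162 without the mean trend, 61 by edgeR and 63 by DESeq2. The difference in junctions with a read, 46.2, ran from -101 to 184 as each library was left out, and the share of the 10 most abundant junctions was 0.0226 percentage points higher in 5xFAD, against -0.218 for 100, which ran from -0.402 without 5xFAD replicate 3 to -0.108 without WT replicate 3 as each library was left out.

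Uncalled differences near 0 turned direction. With each library left out in turn, the main Gigyf2 junction ran from -0.17 to 0.038, Med13l from -0.50 to 0.23, Phf21a from -0.027 to 0.21, Ksr2 from -0.24 to 0.32, Dtnb from -0.20 to 0.15, Elf2 from -0.15 to 0.17, Tmeff1 from -0.14 to 0.17, Aagab from -0.24 to 0.13, and 2 minor Gigyf2 junctions from -0.036 to 1.20 and -0.31 to 0.67. Host sums ran from -0.072 to 0.080 for Dgki, -0.14 to 0.25 for Tasp1, -0.063 to 0.18 for Nbea, -0.27 to 0.034 for Cacna2d3, -0.072 to 0.032 for Rere, -0.033 to 0.28 for App and -0.18 to 0.021 for Gigyf2. Quantile normalization turned Med13l (0.043), Dtnb (0.11), Tmeff1 (-0.024), Dgki (-0.029) and Tasp1 (-0.081). Array quality weights turned Ksr2 (-0.040), Dtnb (0.073), Elf2 (-0.12), Tmeff1 (-0.033), a minor Gigyf2 junction (-0.14), Dgki (-0.023), Rere (0.026) and App (-0.031). EdgeR turned Med13l (0.11), Dtnb (0.018) and Rere (0.0018), and DESeq2 Med13l (0.16), Dtnb (0.048), Aagab (0.0047) and Rere (0.030). Without both replicates 1, Ksr2 (-0.13), Dtnb (0.070), Elf2 (-0.25), Tmeff1 (-0.012), a minor Gigyf2 junction (-0.17), Dgki (-0.060), Tasp1 (-0.032), Rere (0.028), App (-0.14), Adam10 (0.31), Ikzf1 (-0.19) and Homer1 (0.037) turned. The causes were not tested. In the shallowest library, 5xFAD replicate 1, a signal under 0.866 is less than 1 read.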
